A study of Mus musculus with 6 samples.

Results

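Polyamine metabolism was followed through 10 genes that make, break down or regulate putrescine, spermidine and spermine: Odc1, Amd1, Srm, Sms, Oaz1, Oaz2, Azin1, Sat1, Smox and Paox. They were chosen by symbol from the deposited mRNA tables, which list 11609 genes, and 9 of the 10 were found. Smox, which encodes spermine oxidase, is not listed in the tables, so its level is not analysed here and only its promoter sequence was searched. The cells were N2a, a mouse neuroblastoma line, and all 6 libraries came from cells differentiated for 96 h with 10 µM retinoic acid in medium with 2% serum. DMSO cells (3 libraries) then received the solvent alone, and RSL3 cells (3 libraries) received 5 µM RSL3 in the same solvent for 24 h. RSL3 inhibits the lipid peroxide-reducing enzyme GPX4 and induces ferroptosis, an iron-dependent form of cell death. The comparison asks how messenger RNA levels differ between differentiated N2a cells with and without this inducer. The labels do not say whether replicate libraries are separate cultures, so the p-values measure only the spread between these libraries, which may be technical. In bulk samples of this kind, fewer cells of a type and less RNA per cell cannot be told apart.

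Polyamines are small, positively charged molecules that bind nucleic acids and are needed for growth and translation. Ornithine decarboxylase makes putrescine, and spermidine synthase and spermine synthase extend it with aminopropyl groups taken from decarboxylated S-adenosylmethionine. Antizymes bind ornithine decarboxylase and send it to the proteasome, while the antizyme inhibitor ties up the antizymes. In the other direction, the acetyltransferase SAT1 tags spermidine and spermine for export or oxidation. Sat1 is known as a target of p53, and its overexpression has been tied to lipid peroxidation and ferroptosis in other cells.

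All values are FPKM (fragments per kilobase of transcript, scaled to the fragments mapped), so levels can be compared between genes per unit of length, but the read depth behind them is unknown. The summed mRNA values ran from 220605 to 225295 FPKM in the DMSO libraries and from 200135 to 213765 FPKM in the RSL3 libraries. Of 15 neuronal marker genes 11 are listed; Dcx, Nefl, Nefm and Rbfox3 are not. Of the 11, 1 fell and 0 rose, and of the 7 markers of noradrenergic neuroblasts, all listed, 2 of the 6 tested fell and 0 rose, beside 6.38% of all tested mRNAs past the same threshold. Of the glial, macrophage and fibroblast or endothelial markers, 2 of 8, 1 of 8 and 3 of 8 are listed, with sums of at most 5.59 FPKM in any library. Markers of another tissue moved with the treatment: all 20 liver markers are listed, none was at 0 in every library of a group, and all 15 that could be tested fell. Their sum lay between 81.7 and 118.5 FPKM under DMSO and between 21.3 and 35.9 FPKM under RSL3, and their part in the results below was not tested. The lncRNA entries at ribosomal RNA loci, which can mark residual ribosomal RNA, summed to between 18793 and 22979 FPKM under DMSO and between 26639 and 33129 FPKM under RSL3, and their part was not tested either. RSL3 replicate 1 stood apart: on the first principal component (47.2% of the variance) it scored 26.2, against 1.249 and 7.35 for replicates 2 and 3 and scores from -13.2 to -9.46 in the controls. Across 10578 genes, its difference from the other RSL3 libraries correlated with transcript GC content at 0.64. The same correlation was -0.60 for RSL3 replicate 2 and -0.24 for RSL3 replicate 3. Each library was set against the mean of the other RSL3 libraries, so these values depend on each other. They cannot tell which library carries the GC skew, and genes are not independent replicates. Gpx4, whose protein RSL3 binds, stood at 158 ± 2.66 FPKM under DMSO and 151 ± 12.6 FPKM under RSL3 (SD, n = 3 each).

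Under RSL3, the mRNA of the polyamine-acetylating enzyme Sat1 stood higher, and those of the synthetic enzymes Odc1, Srm and Sms and of the antizyme inhibitor Azin1 stood lower, with no overlap between the groups. In the test across all mRNAs (limma on log2(FPKM + 1), Benjamini-Hochberg adjustment, threshold 0.05), 0 of the 9 genes passed, where 6.38% of the 10590 tested mRNAs did. Of all tested mRNAs 261 (2.46%) were called higher and 415 (3.92%) lower, a split that became 350 and 329 after quantile normalization. The adjusted p-values of the 9 genes ran from 0.0662 for Sat1 to 0.754 for Oaz1. At an unadjusted p under 0.05 there were 5 of the 9 genes, 1 higher and 4 lower, beside 24.1% of all tested mRNAs. The same 5 genes had groups that did not overlap, which held for 33% of all tested mRNAs: 13.4% were higher and 19.6% lower. The median log2 fold change was -0.28 over the 9 genes and -0.031 over all tested mRNAs. All 9 genes were at or above the filter of 1 FPKM in every library, so none entered the test through 1 group alone.

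**Figure D1:**
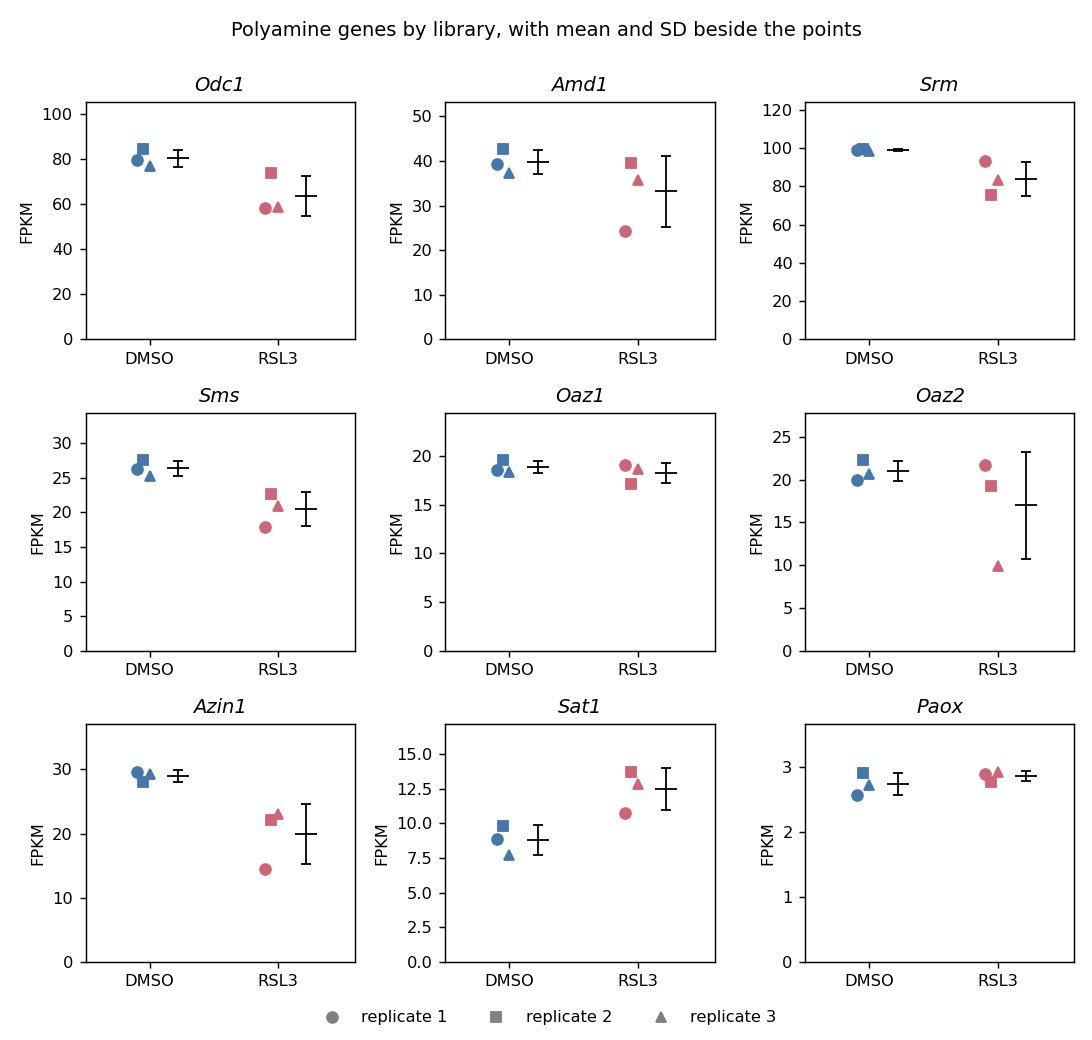
FPKM of the 9 listed genes in each library (vertical axes start at 0), with the mean and SD of 3 libraries in black beside the points; symbols mark the replicate number. Sat1 under RSL3 lies above every DMSO library, and Odc1, Srm, Sms and Azin1 under RSL3 lie below every DMSO library.

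Of the 4 synthetic enzymes, Srm, Odc1 and Amd1 held the first places by level, and Sms lay below Azin1 under DMSO. Srm, spermidine synthase, was the most abundant of the 9 genes in both groups. Its mRNA (gene at chr4:148591503-148594993, plus strand, GRCm38 as for all positions) stood at 99.0, 99.4 and 98.5 FPKM in DMSO replicates 1, 2 and 3 and at 93.1, 75.4 and 83.5 FPKM in RSL3 replicates 1, 2 and 3. The DMSO libraries lay almost on top of each other (98.9 ± 0.44 FPKM, SD, n = 3), while the RSL3 libraries were all lower and spread widely (84.0 ± 8.87 FPKM, n = 3). The fitted log2 fold change was -0.24 ± 0.08 (SE; limma adjusted p = 0.129). Without RSL3 replicate 1, the library nearest to the DMSO level, it was -0.31 and passed (adjusted p = 0.0193).

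Odc1 (chr12:17544794-17551505, plus strand) encodes ornithine decarboxylase, the enzyme that commits ornithine to the pathway. It stood at 79.6, 84.2 and 76.8 FPKM under DMSO and at 58.3, 73.8 and 58.8 FPKM under RSL3. RSL3 replicate 2 lay just below the lowest DMSO library, and replicates 1 and 3 lay together well below it. The group means were 80.2 ± 3.74 and 63.6 ± 8.79 FPKM (SD, n = 3), a ratio of 0.794, and the log2 fold change was -0.34 (95% confidence interval -0.57 to -0.10; limma adjusted p = 0.0923). It passed in 1 of the 15 alternative settings, without RSL3 replicate 2 (-0.45, adjusted p = 0.0199).

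Sms (chrX:157443855-157492287, minus strand), spermine synthase, stood at 26.3, 27.5 and 25.4 FPKM under DMSO and at 17.9, 22.7 and 20.9 FPKM under RSL3. Every RSL3 library was lower, RSL3 replicate 1 the most. The log2 fold change was -0.35 ± 0.09 (SE; limma adjusted p = 0.0704), and the ratio of the means was 0.778. Sms passed without RSL3 replicate 1 (adjusted p = 0.0430), without RSL3 replicate 2 (0.0427), after median-ratio scaling (0.0489) and with length and GC trends removed (0.0175).

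Amd1 (chr10:40287458-40302186, minus strand) encodes S-adenosylmethionine decarboxylase, which supplies the aminopropyl groups. It stood at 39.2, 42.6 and 37.2 FPKM under DMSO and at 24.2, 39.6 and 35.7 FPKM under RSL3. Only RSL3 replicates 1 and 3 lay below the DMSO range, and replicate 2 lay within it. The log2 fold change was -0.28 (95% confidence interval -0.68 to 0.12; limma adjusted p = 0.364), and -0.073 without RSL3 replicate 1. Its near-identical copy Amd2 showed the same low library, at 4.78, 4.92 and 4.60 FPKM under DMSO and 2.05, 4.82 and 3.90 FPKM under RSL3. The compared GENCODE M21 transcripts of both genes (3204 and 3218 bases long) are identical at 99.6% of 3204 bases, with an unbroken identical run of 930 bases, and 5 processed pseudogenes carry the Amd name. How the authors' quantification split reads between the copies is not given, so the levels of Amd1 and Amd2 are uncertain.

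**Figure D2:**
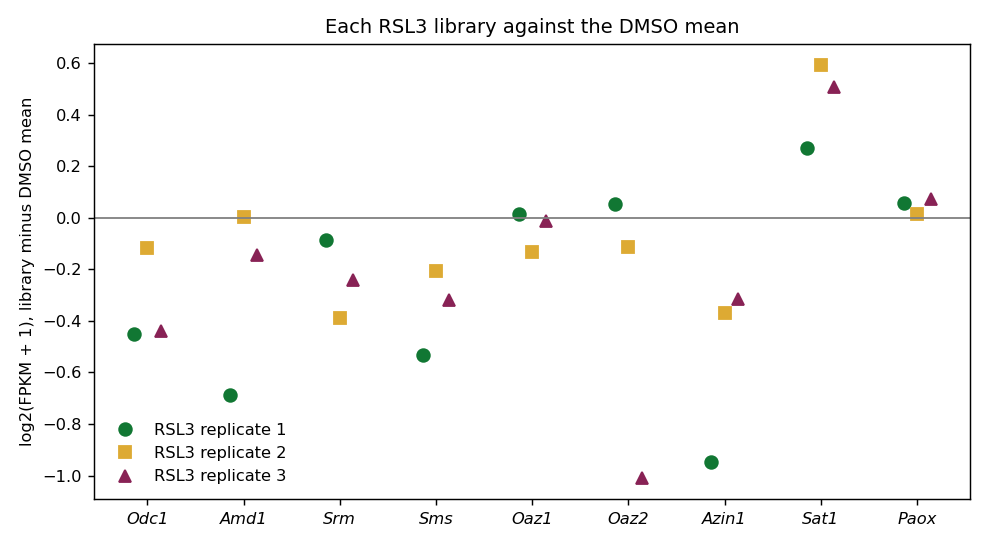
Difference of each RSL3 library from the mean of the DMSO libraries on the log2(FPKM + 1) scale, by gene. RSL3 replicate 1 is the lowest RSL3 library for Odc1, Amd1, Sms, Azin1 and Sat1 and the highest for Srm, Oaz1 and Oaz2. RSL3 replicate 3 stands alone for Oaz2 at -1.01.

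The RSL3 libraries did not order the synthetic genes alike. On the log2(FPKM + 1) scale, RSL3 replicate 1 differed from the DMSO mean by -0.69 for Amd1 but by -0.086 for Srm. RSL3 replicate 2 differed by 0.00 for Amd1 and by -0.39 for Srm. The transcripts of Srm average 58.5% GC and those of Amd1 43.1%, beside a median of 51.1% over all tested mRNAs. Those of Odc1 and Sms average 48.0% and 43.8%. With each library's trends with length and GC removed, the log2 fold changes were -0.26 for Srm (adjusted p = 0.0135), -0.25 for Sms, -0.24 for Odc1 (adjusted p = 0.0632) and -0.16 for Amd1 (adjusted p = 0.199).

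The antizymes are regulated during translation: the ribosome must skip a base at a stop codon to make the full protein, and polyamines favour the skip. The site is shown because it also bears on how these genes are modelled for counting. The sense strand around it reads as follows in GRCm38, at chr10:80828268-80828323 for Oaz1 and chr9:65686245-65686300 for Oaz2, both on the plus strand and inside the annotated coding genes.
Oaz1: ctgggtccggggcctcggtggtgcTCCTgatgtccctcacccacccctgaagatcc
Oaz2: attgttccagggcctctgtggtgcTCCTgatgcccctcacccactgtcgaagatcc
Capitals mark the 4 bases that the first coding model of each gene in GENCODE M21 leaves out as a gap between exons. The other gapped coding models leave out 1 base, the last capital T, which opens the stop codon tga. A gap of this kind is in 4 of the 5 coding models of Oaz1 that reach the site and in 3 of 3 of Oaz2. The stretches of both genes are identical at 46 of 56 bases. The authors' annotation release is not named, and the effect of such gaps on the deposited FPKM was not tested.

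Oaz1 encodes the main antizyme and had the smallest fitted difference of the 9 genes. It stood at 18.6, 19.6 and 18.4 FPKM under DMSO and at 19.0, 17.1 and 18.7 FPKM under RSL3, and the groups overlapped. The log2 fold change was -0.043, with a 95% confidence interval from -0.20 to 0.12 (limma adjusted p = 0.754), and turned to 0.0018 without RSL3 replicate 2. Oaz2 stood at 20.0, 22.3 and 20.7 FPKM under DMSO and at 21.8, 19.3 and 9.90 FPKM under RSL3. Here RSL3 replicate 3 alone was low, and the other RSL3 libraries lay at or near the DMSO level. The log2 fold change of -0.36 (95% confidence interval -0.95 to 0.24; limma adjusted p = 0.439) was -0.030 without that library.

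Azin1 (chr15:38487427-38519266, minus strand) encodes antizyme inhibitor, a catalytically inactive relative of ornithine decarboxylase that binds antizyme in its place. It stood at 29.7, 28.0 and 29.3 FPKM under DMSO and at 14.5, 22.2 and 23.1 FPKM under RSL3. Every RSL3 library was lower, under RSL3 replicate 1 far below the other libraries. The means were 29.0 ± 0.88 and 19.9 ± 4.70 FPKM (SD, n = 3), a ratio of 0.688 and the lowest of the 9 genes. Its log2 fold change was -0.55 ± 0.16 (SE; limma adjusted p = 0.0915). Without RSL3 replicate 1 it was smaller, at -0.34, and passed (adjusted p = 0.0129), as it did with length and GC trends removed (-0.43, adjusted p = 0.0133). An antisense lncRNA, Gm49077 (chr15:38518786-38520051, plus strand), overlaps the 5′ end of Azin1. It stood between 0.441 and 0.849 FPKM under DMSO and between 0.398 and 0.796 FPKM under RSL3, and the groups overlapped.

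Sat1 encodes spermidine/spermine N1-acetyltransferase, the rate-limiting step of polyamine breakdown (chrX:155213132-155216449, minus strand). It stood at 8.89, 9.84 and 7.70 FPKM under DMSO and at 10.8, 13.7 and 12.9 FPKM under RSL3. All RSL3 libraries were higher than all DMSO libraries, RSL3 replicate 1 by the least. The means were 8.81 ± 1.07 and 12.5 ± 1.53 FPKM (SD, n = 3), a ratio of 1.41. For Sat1 the log2 fold change was 0.46 (95% confidence interval 0.18 to 0.73; limma adjusted p = 0.0662). Sat1 passed in 4 of the 15 alternative settings: without RSL3 replicate 1 (0.55, adjusted p = 0.0210), with length and GC trends removed (0.58, adjusted p = 0.00408), and once quantile normalization (adjusted p = 0.0328; 6.41% of all mRNAs passed) or median-ratio scaling (adjusted p = 0.0333; 6.39% of all mRNAs) was used. Without any other single library its adjusted p lay between 0.108 and 0.205.

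Paox (chr7:140115799-140137224, plus strand) encodes the peroxisomal oxidase that acts on acetylated spermidine and spermine. It was the least abundant of the 9 genes, at 2.57, 2.92 and 2.73 FPKM under DMSO and 2.89, 2.78 and 2.93 FPKM under RSL3. The groups overlapped, and the log2 fold change was 0.049 (95% confidence interval -0.14 to 0.23; limma adjusted p = 0.754). The pseudocount of 1 FPKM understates changes at this level; with 0.1 FPKM it was 0.065.

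**Figure D3:**
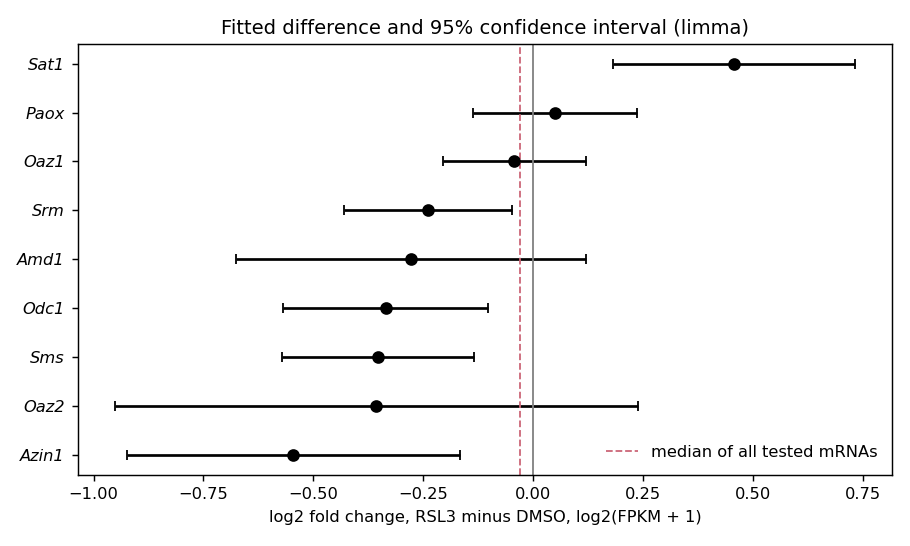
Log2 fold change of each gene (RSL3 minus DMSO, log2(FPKM + 1)) with its 95% confidence interval from limma, not adjusted for the number of genes; the dashed line is the median of all tested mRNAs, -0.031. The intervals of Sat1, Srm, Odc1, Sms and Azin1 lie on one side of 0.

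Promoter sequence is shown for Sat1, the gene that stood highest against DMSO, and for Odc1 and Sms, which stood lower. The sequences are from RefSeq's GRCm38.p6 annotation, end at the base before the earliest annotated start in GENCODE M21, and are written along the gene's strand.
Sat1, chrX:155216450-155216699, minus strand: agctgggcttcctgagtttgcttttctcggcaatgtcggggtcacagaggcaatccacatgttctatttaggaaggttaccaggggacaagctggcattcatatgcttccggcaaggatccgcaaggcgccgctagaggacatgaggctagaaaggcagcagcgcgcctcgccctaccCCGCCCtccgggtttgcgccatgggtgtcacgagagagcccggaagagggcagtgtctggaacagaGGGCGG
Odc1, chr12:17544623-17544793, plus strand: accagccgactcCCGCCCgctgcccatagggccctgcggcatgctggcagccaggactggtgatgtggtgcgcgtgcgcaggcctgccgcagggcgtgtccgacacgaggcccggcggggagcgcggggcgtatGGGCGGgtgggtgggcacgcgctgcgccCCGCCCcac
Sms, chrX:157492288-157492537, minus strand: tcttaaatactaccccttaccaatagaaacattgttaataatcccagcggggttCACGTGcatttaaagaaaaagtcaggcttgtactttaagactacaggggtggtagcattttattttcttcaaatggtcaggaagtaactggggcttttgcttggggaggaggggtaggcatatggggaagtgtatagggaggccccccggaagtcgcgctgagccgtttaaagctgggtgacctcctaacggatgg
Capitals mark matches, on either strand, to 3 motifs: the GC box GGGCGG, the E-box CACGTG that MYC family factors bind, and TGACNNNGC, the core of the antioxidant response element that NRF2 binds. The motifs do not share a match in these sequences. The stretches shown for Sat1 and Odc1 hold GC boxes alone, and that of Sms holds an E-box. A further 300-base window of Sms, chrX:157491319-157491618 on the minus strand, holds 4 GC boxes and 0 E-boxes. It lies inside the annotated gene, downstream of the earliest start, while the E-box lies upstream of that start. Which start of Sms these cells use was not tested. In the 300-base windows of the table (8 of the 10 genes have at least 1), a GC box is in 7 genes, the antioxidant core in 2 (Oaz1 and Smox) and the E-box in 1 (Sms). Among all 32851 windows, 35.7% hold a GC box, 12.4% the antioxidant core and 7.15% an E-box. These shares are per window, while the counts before them are per gene, and the 8 genes have 10 windows. A match describes these letters only; binding was not measured.

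The order of levels under DMSO was Srm, Odc1, Amd1, Azin1, Sms, Oaz2, Oaz1, Sat1 and Paox, and no neighbours in that order overlapped between libraries. Under RSL3, Srm, Odc1 and Amd1 kept the first places without overlap and Paox the last. Between them, Sms (20.5 ± 2.42 FPKM), Azin1 (19.9 ± 4.70), Oaz1 (18.3 ± 1.03), Oaz2 (17.0 ± 6.26) and Sat1 (12.5 ± 1.53; all SD, n = 3) followed, and each of these overlapped with its neighbours within this run.

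Ratios between paired genes were taken within each library and are given with no test. Dividing within a library cancels a common scale but not a trend with GC content. Transcripts of Azin1 average 42.4% GC and those of Oaz1 57.3%, and those of Sms 43.8% and of Srm 58.5%. The part of GC content in these ratios was not tested. Oaz1, Oaz2 and Sms each have 1 named processed pseudogene, and coding models of Oaz1 and Oaz2 have the gap described above. Their part in the order of levels and in these ratios was not tested either. Sat1 per Odc1 was 0.112, 0.117 and 0.1003 under DMSO and 0.185, 0.186 and 0.219 under RSL3. This ratio of the acetylating to the committing enzyme did not overlap between the groups. That follows from the genes themselves, since neither overlapped between the groups and they differed in opposite directions. Azin1 per Oaz1 was 1.597, 1.43 and 1.59 under DMSO and 0.763, 1.296 and 1.24 under RSL3, also without overlap. In RSL3 replicate 1 alone, the mRNA of Azin1 was below that of Oaz1. The Azin1 per Oaz1 ratio leaves out Oaz2, which stood above Oaz1 under DMSO. It therefore does not compare the inhibitor with both antizymes together, which was not tested. Odc1 per Oaz1 was 4.29, 4.30 and 4.17 under DMSO and 3.06, 4.31 and 3.15 under RSL3, and overlapped through RSL3 replicate 2. Sms per Srm was 0.267 ± 0.0099 under DMSO and 0.248 ± 0.0544 under RSL3 (SD, n = 3), and overlapped.

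Genes around the pathway were read from 8 lists. Of their 77 genes, 51 are listed and 48 could be tested; 5 fell and 1 rose (12.5% past the threshold, beside 6.38% of all tested mRNAs), and their median log2 fold change was -0.13. Those that passed were Eif5a, Aldh18a1, Got1, Apip and Mycn, which fell, and Cat, which rose.

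Eif5a encodes the translation factor that carries hypusine, the residue made from spermidine. It fell from 262, 265 and 248 FPKM under DMSO to 192, 183 and 190 FPKM under RSL3. The groups were far apart against their spread (258 ± 9.36 and 188 ± 4.38 FPKM, SD, n = 3; log2 fold change -0.45 ± 0.06 SE, limma adjusted p = 0.00679). Of the 4 genes of the hypusine pathway it alone passed. The hypusine-forming enzyme genes Dhps and Dohh stood at -0.14 and -0.13 without passing (limma adjusted p = 0.245 and 0.258). For both, every RSL3 library was below every DMSO library, which held for 19.6% of all tested mRNAs. The remaining gene, Eif5a2, stood at -0.20 (adjusted p = 0.358), and its groups overlapped.

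In the supply of ornithine and arginine, 1 of 7 tested genes fell and 0 rose (median -0.099). Aldh18a1, which starts the route from glutamate to proline and ornithine, fell from 71.1, 72.8 and 73.7 FPKM to 55.2, 49.2 and 52.8 FPKM (log2 fold change -0.46 ± 0.06 SE, limma adjusted p = 0.00915). Its groups were well apart, but the call was lost without DMSO replicate 2 or DMSO replicate 3 (up to adjusted p = 0.0615). In S-adenosylmethionine supply and the salvage of methylthioadenosine, the by-product of both aminopropyl transfers, 2 of 13 tested genes fell and 0 rose (median -0.16). The transaminase gene Got1 fell from 40.0 ± 1.27 to 30.2 ± 1.11 FPKM (SD, n = 3; limma adjusted p = 0.0135), and the salvage dehydratase gene Apip from 10.6 ± 1.59 to 7.36 ± 0.27 FPKM (adjusted p = 0.0480). Apip passed in 0 of the 6 fits that left out 1 library, and Got1 in 2.

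Cat encodes catalase, which removes the hydrogen peroxide that polyamine oxidases release, among other sources. It rose from 12.01, 13.8 and 12.1 FPKM under DMSO to 23.7, 24.2 and 21.9 FPKM under RSL3. All RSL3 libraries were far above all DMSO libraries (log2 fold change 0.83 ± 0.08 SE, limma adjusted p = 0.00377). It was the only 1 of 7 tested genes of amine and aldehyde oxidation to pass (median 0.017). Cat and Eif5a passed in all 15 alternative settings.

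Of 10 transcription factors tied to polyamine genes, 1 fell and 0 rose (median -0.056). Mycn, a MYC family factor amplified in human neuroblastoma, fell from 5.98, 5.74 and 5.76 FPKM to 3.45, 3.17 and 3.68 FPKM (log2 fold change -0.62 ± 0.08 SE, limma adjusted p = 0.00836). It passed in 14 of the 15 alternative settings, the exception being without DMSO replicate 3 (adjusted p = 0.0517). Myc, known to switch on Odc1, stood at 71.0, 66.6 and 67.8 FPKM under DMSO and at 67.9, 58.3 and 58.7 FPKM under RSL3. Its groups overlapped (log2 fold change -0.15, limma adjusted p = 0.264). Trp53, the p53 gene, stood at -0.052 (adjusted p = 0.819) and Nfe2l2, the NRF2 gene, at 0.19 (adjusted p = 0.250). Mycl, near the filter of 1 FPKM, stood at -0.29 (adjusted p = 0.0869), Mnt at 0.46 (0.109) and Nfkb1 at -0.24 (0.115). Mycl was below 1 FPKM in every RSL3 library, so it entered the test through the DMSO group alone. With length and GC trends removed, Mnt, Nfkb1 and Nfe2l2 passed, where 15.4% of all mRNAs did. Mycl passed there too, but its lower level is not read as a result, because the filter selected it by its DMSO values.

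None of 5 tested genes of polyamine transport passed in the reported fit (median -0.10). Slc3a2, the heavy chain of several amino acid transporters that has also been tied to polyamine export, came nearest, at 138 ± 0.59 FPKM under DMSO and 110 ± 10.4 FPKM under RSL3 (SD, n = 3; log2 fold change -0.32, limma adjusted p = 0.0512). Slc3a2 passed in 3 of the 15 alternative settings (lowest limma adjusted p = 0.0226). These were a filter of 5 FPKM, length and GC trends removed (15.4% of all mRNAs passed) and without RSL3 replicate 3 (1.78%). The lysosomal polyamine exporter gene Atp13a2 stood at 0.053 (adjusted p = 0.793) and its relative Atp13a3 at -0.12 (adjusted p = 0.742). Of the other members of the antizyme inhibitor, decarboxylase and acetyltransferase families, Azin2 stood at -0.24 (adjusted p = 0.367) and Amd2 at -0.38 (adjusted p = 0.342), and 0 of the 2 tested passed. None of 8 lipoxygenase pathway genes, among them Alox15, is listed in the tables.

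**Figure D4:**
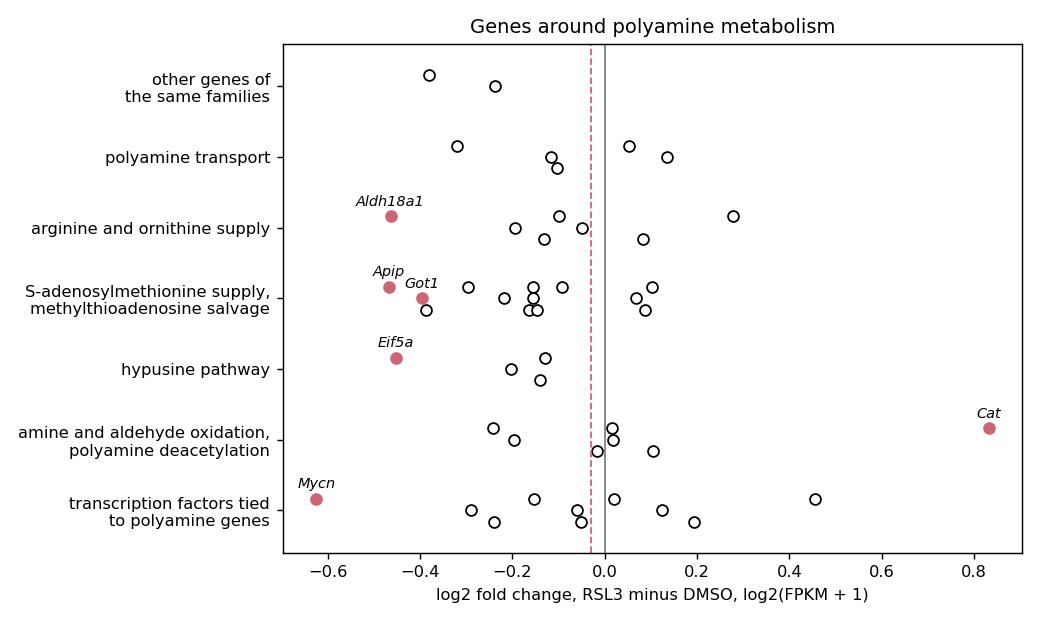
Log2 fold change (RSL3 minus DMSO, log2(FPKM + 1)) of 48 tested genes around polyamine metabolism, by list; filled points had a limma adjusted p under 0.05. Eif5a, Aldh18a1, Got1, Apip and Mycn lie below 0 and Cat above it, and the dashed line is the median of all tested mRNAs.

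The direction of 8 of the 9 polyamine genes was the same in every alternative setting tried, and that of Oaz1, near 0, was not. The libraries that decide a call differ by gene. Without RSL3 replicate 1, Sat1, Srm, Sms and Azin1 passed, 4 of 9 genes, where 12.3% of all tested mRNAs did. With length and GC trends removed the same 4 genes passed, where 15.4% of all mRNAs did. Without RSL3 replicate 2, Odc1 and Sms passed, where 6.96% of all tested mRNAs did. Without RSL3 replicate 3 or DMSO replicate 1, 2 or 3, 0 of the 9 genes passed, where 1.78%, 1.85%, 1.49% and 1.37% of all tested mRNAs did. Over all alternatives, the limma adjusted p ran from 0.00408 to 0.205 for Sat1, from 0.0129 to 0.258 for Azin1, from 0.0175 to 0.229 for Sms, from 0.0135 to 0.387 for Srm and from 0.0199 to 0.275 for Odc1.

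**Figure D5:**
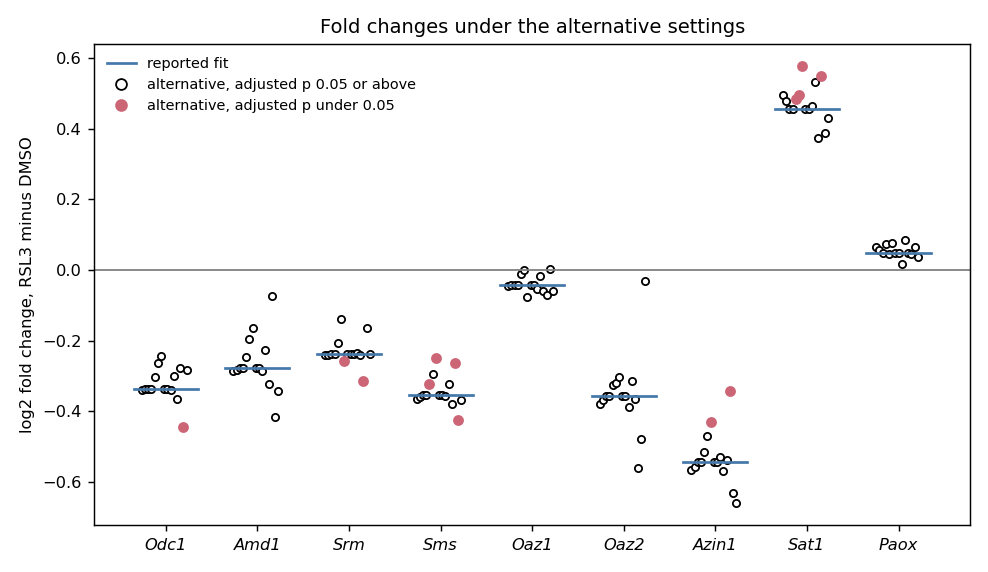
Log2 fold change of each gene under the alternative settings (points; filled where the adjusted p was under 0.05) beside the reported fit (line). Sat1 stays between 0.37 and 0.58 and Azin1 between -0.66 and -0.34, and Oaz1 crosses 0.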

How the data were processed

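The members and gene lists were chosen with earlier results of these data known. The deposited mRNA and lncRNA values are FPKM, made by the authors from 6 poly(A)-selected libraries with cutadapt, HISAT2 and StringTie 1.3.3 on GRCm38, per the submitters' processing notes; their annotation release and filters: not given in the sources used here. Genes at 1 FPKM or more in at least 3 of 6 libraries were tested on log2(FPKM + 1) by a two-sided moderated test with trend in limma 3.58.1 (R 4.3.3), adjusted by Benjamini-Hochberg over 10590 mRNAs; the fit was checked on simulated data. GENCODE M21 gave positions, lengths and GC content (11595 of 11609 identifiers matched), promoters from RefSeq. A symbol under several identifiers (Dohh) was read from the one with the highest mean. Named were all members, up to 3 genes past the threshold per list or else the 1 with the smallest p, the 4 ratios, and Gpx4. Dhps, Dohh, Eif5a2, Myc, Mycl, Mnt, Nfkb1, Trp53, Nfe2l2, Atp13a2, Atp13a3 and Azin2 were added after their values were seen. The circRNA tables were not used.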

Additional observations from a re-analysis of the deposited data

How the results depend on the processing

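Of all tested mRNAs 676 passed in the reported fit, 1627 with length and GC trends removed, 253 with the replicate block, and between 145 and 1299 without single libraries, most without RSL3 replicate 1. Of the polyamine genes 0 passed in the reported fit, 2 after median-ratio scaling (Sat1 and Sms), 1 after quantile normalization (Sat1), 4 with the trends removed, and between 0 and 4 without single libraries. Of the genes around the pathway 6 passed in the reported fit, 12 with the trends removed, 4 with the replicate block, and between 2 and 8 without single libraries. The 12 include Mycl, which met the filter through the DMSO group alone. Counts under the other pseudocounts, filters and variance settings stayed within 1.5 times. The log2 fold change of Oaz1, -0.043, lay between -0.072 and 0.0018 without single libraries and turned positive without RSL3 replicate 2. The cause was not tested for any of these. The labels number the libraries but state no pairing: deviations of same-numbered libraries correlated at -0.15, 0.049 and -0.062, and 1 of 6 libraries correlated best with its own number. With the replicate block 0 polyamine genes passed, and Sat1 had an adjusted p of 0.101. Depth is unknown from FPKM, so no counting error is given.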
